A study of Mus musculus with 87 samples.

Results

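JARID2 peaks without SUZ12 were the regions of the deposited JARID2 peak list that shared no base with any peak of the deposited SUZ12 list, in mouse embryonic stem cells (build mm10). They were chosen by the positions of JARID2 and SUZ12 peaks alone, and numbered 543 of 4991 JARID2 peaks, and 335 of them overlapped a peak of the deposited PCL2 list by at least 1 bp while 208 did not. The other 4448 JARID2 peaks overlapped SUZ12. The study profiled cells that were wild type (WT) or lacked 1 or several subunits of Polycomb repressive complex 2, and its 87 samples hold 63 chromatin immunoprecipitations (ChIP) and 24 RNA libraries. JARID2 was immunoprecipitated in 4 of them, 1 each from Jarid2 KO, Suz12 KO, Pcl1-3 KO and WT cells. PCL2 was immunoprecipitated in 6, 1 each from Jarid2 KO, Pcl1-3 KO, Suz12 KO, Suz12 KO with Flag-SUZ12, Suz12 KO with Flag-SUZ12-C2, and WT cells. SUZ12 was immunoprecipitated in 23, of which 2 were WT, 2 were Suz12 KO and the others lacked 1 or more of Pcl1 to Pcl3, Jarid2, Aebp2 and Epop. All ChIP cells carry the strain label 129B6F1 and grew on gelatin in 2i medium, which holds cells in a naive pluripotent state by inhibiting a pair of kinases; the labels do not say how many clones stand behind a genotype. The sources used here do not name the libraries behind the 3 lists or the threshold of their calls.

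Polycomb repressive complex 2 trimethylates lysine 27 of histone H3 at silent developmental genes. SUZ12 is a core subunit that holds the enzyme together and docks the accessory subunits. JARID2 binds DNA and ubiquitylated histone H2A, and in stem cells it is known from the form of the complex that also carries AEBP2. PCL2, the product of Mtf2, is a Polycomb-like protein of the other form, and its winged-helix domain binds unmethylated CpG-rich DNA.

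The lists hold positions only, with no heights and no replicates, so no test across samples was possible and the values that follow are descriptions. Shares are given with 95% Wilson intervals, which cover counting error only and treat neighbouring regions as independent. A region below the threshold of the SUZ12 list cannot be told apart from one with no SUZ12. The SUZ12 list held 7796 peaks and the PCL2 list 20003, of which 11828 overlapped neither of the other lists.

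A few of these regions lay on gene starts, and their promoter sequence is shown first because it is what can be read of the DNA under the peaks. Each line gives the 250 bases before an annotated start, 5′ to 3′, from RefSeq's GRCm38.p6 table, whose coordinates are those of mm10, with every CpG in capitals. The first 3 belong to regions with PCL2 and to genes described further on; the last, of Akip1, belongs to a region without PCL2 and was chosen after its high CpG density had been seen.
Col1a2 (chr6:4505368-4505617, strand +): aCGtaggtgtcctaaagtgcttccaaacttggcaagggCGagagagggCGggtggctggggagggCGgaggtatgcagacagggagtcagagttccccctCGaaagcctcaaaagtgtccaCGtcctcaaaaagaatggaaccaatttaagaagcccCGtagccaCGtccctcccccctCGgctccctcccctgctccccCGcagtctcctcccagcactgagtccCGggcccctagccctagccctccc
Abhd6 (chr14:8002638-8002887, strand +): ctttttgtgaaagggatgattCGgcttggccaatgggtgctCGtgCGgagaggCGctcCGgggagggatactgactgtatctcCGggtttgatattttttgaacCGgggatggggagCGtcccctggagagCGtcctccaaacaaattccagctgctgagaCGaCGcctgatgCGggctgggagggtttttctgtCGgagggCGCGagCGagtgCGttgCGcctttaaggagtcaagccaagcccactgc
Gm40602 (chr10:13060284-13060533, strand +): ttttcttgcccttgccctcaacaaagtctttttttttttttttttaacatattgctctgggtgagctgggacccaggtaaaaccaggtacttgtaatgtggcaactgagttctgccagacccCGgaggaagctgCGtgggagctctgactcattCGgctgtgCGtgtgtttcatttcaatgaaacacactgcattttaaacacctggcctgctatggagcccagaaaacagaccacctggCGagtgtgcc
Akip1 (chr7:109703428-109703677, strand +): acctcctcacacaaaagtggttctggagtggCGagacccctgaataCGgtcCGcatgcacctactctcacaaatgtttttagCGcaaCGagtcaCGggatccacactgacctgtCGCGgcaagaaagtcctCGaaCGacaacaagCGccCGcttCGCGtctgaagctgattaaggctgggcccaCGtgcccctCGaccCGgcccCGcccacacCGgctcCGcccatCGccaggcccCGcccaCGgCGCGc
These 250 bases held 11 CpGs at Col1a2, which encodes a chain of type I collagen, 18 at Abhd6, a monoacylglycerol hydrolase, 5 at the lncRNA Gm40602 and 25 at Akip1, which encodes an interaction partner of protein kinase A. The range among 4 promoters was thus wide, from CpG-poor to CpG-rich.

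The next lines show stretches around the hexamer CACGTG, in capitals, in promoters under JARID2 peaks without SUZ12. CACGTG is the E-box recognised by several basic helix-loop-helix factors, such as MYC with MAX, and reads the same on both strands. It was searched after the names of the genes at these regions had been seen. The first 7 lie in regions with PCL2 and the last, of Akip1, in a region without.
Esr2 (chr12:76177299-76177358, strand -): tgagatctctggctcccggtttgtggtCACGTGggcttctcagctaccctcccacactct
Cgn (chr3:94786635-94786694, strand -): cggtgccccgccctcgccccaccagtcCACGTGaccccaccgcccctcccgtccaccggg
Arhgef39 (chr4:43508826-43508885, strand -): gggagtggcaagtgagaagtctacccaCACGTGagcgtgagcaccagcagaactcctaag
Susd1 (chr4:59438765-59438824, strand -): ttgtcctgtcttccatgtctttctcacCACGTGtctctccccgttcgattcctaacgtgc
Entpd3 (chr9:120539640-120539699, strand +): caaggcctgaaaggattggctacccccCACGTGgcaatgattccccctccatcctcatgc
Cck (chr9:121495728-121495787, strand -): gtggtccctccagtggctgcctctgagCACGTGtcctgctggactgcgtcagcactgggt
Kcnab1 (chr3:65108825-65108884, strand +): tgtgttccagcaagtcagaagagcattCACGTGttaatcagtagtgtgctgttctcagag
Akip1 (chr7:109703583-109703642, strand +): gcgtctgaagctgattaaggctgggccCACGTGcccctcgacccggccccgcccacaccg
The hexamer began 72 bases before the start of Esr2, an oestrogen receptor gene, 185 before that of Cgn, which encodes the tight-junction protein cingulin, and 66 before that of Cck, which encodes the peptide hormone cholecystokinin. It began 151 bases before the start of Entpd3, which encodes an ecto-nucleotidase, 162 before that of Kcnab1, which encodes a potassium channel subunit, and 68 before that of Akip1. The copies shown lie inside the JARID2 region apart from that of Entpd3, which lies just outside its edge, within the same promoter window.

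JARID2 peaks without SUZ12 were short. Their median width was 394 bp, with quartiles of 337.5 and 567.5 bp and a widest region of 2564 bp, against a median of 1175 bp (quartiles 672.75 and 1987.75 bp) for JARID2 peaks with SUZ12. Of the 543 regions 32 (5.89%) reached 1 kb, against 57.5% of those with SUZ12. Regions with PCL2 had a median of 436 bp (quartiles 348 and 652.5 bp), against 350.5 bp (315 and 460.25 bp) for regions without PCL2. At least 1 kb was reached by 26 regions with PCL2 (7.76%) and by 6 without (2.88%). Among JARID2 peaks under 300 bp, 53.1% lacked SUZ12, and among those of 1 kb or more, 1.24% did. Within 1 kb of a SUZ12 peak the order was the other way, with a median of 373 bp for 76 regions with PCL2 against 396 bp for 63 without; at 1 to 10 kb it was 528 bp against 348 bp. A wide peak has more chances to touch another, so width and overlap are not independent measures.

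**Figure D1:**
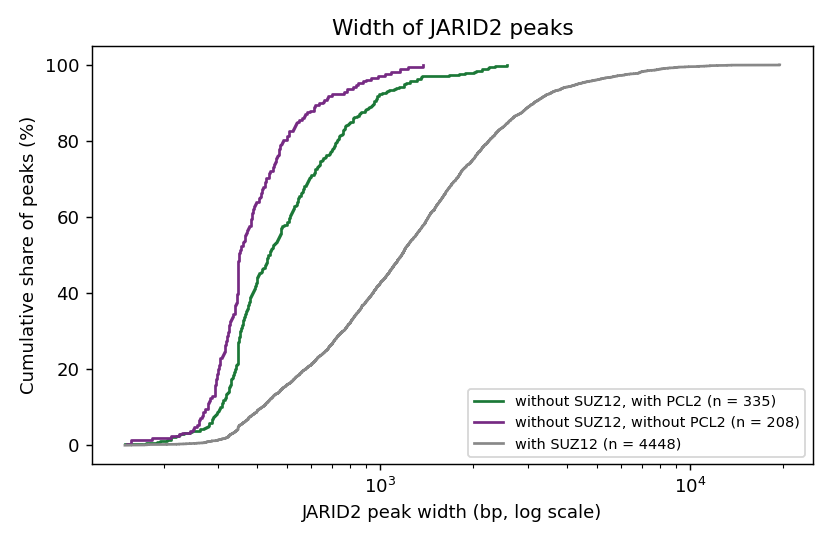
Cumulative share of JARID2 peaks (vertical axis, %) by peak width (horizontal axis, bp, log scale) for peaks without SUZ12 that overlap PCL2 (green), peaks without SUZ12 that do not (purple) and peaks with SUZ12 (grey). The medians are 436, 350.5 and 1175 bp, so both curves without SUZ12 lie left of the grey one.

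PCL2 overlapped 61.7% of JARID2 peaks without SUZ12 (interval 57.5% to 65.7%) and 99.2% of those with SUZ12 (98.9% to 99.5%). The gap was present at every width. Under 300 bp, PCL2 lay on 29 of 68 regions without SUZ12 (42.6%), against 98.3% of 60 peaks with it. From 300 bp to under 500 bp the share was 56.3% of 293 regions without SUZ12, against 97.0% of 644 with it. From 500 bp to under 1 kb it was 76.7% of 150, against 99.3% of 1187. At 1 kb or more it was 81.2% of 32 (64.7% to 91.1%), against 99.8% of 2557. The intervals of the 2 classes did not overlap in any of the 4 width bins.

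**Figure D2:**
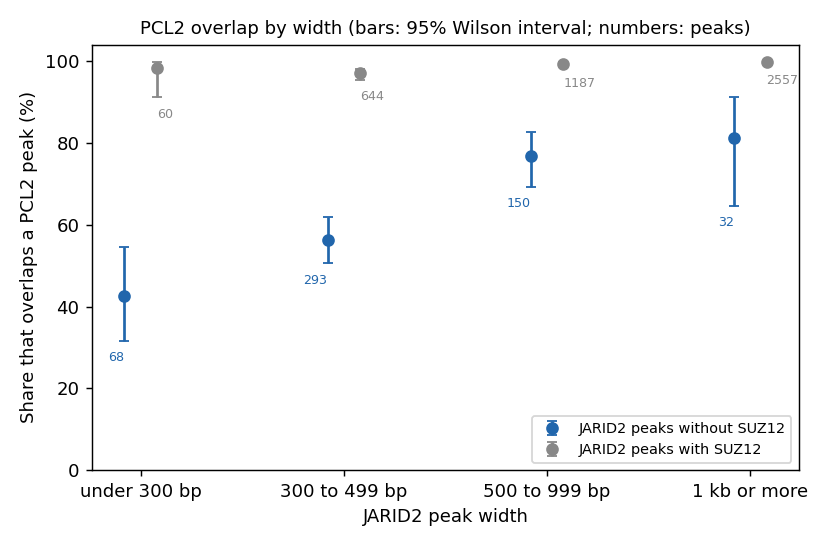
Share of JARID2 peaks that overlap a PCL2 peak (vertical axis, %) in 4 bins of JARID2 peak width (horizontal axis, bp), for peaks without SUZ12 (blue) and with SUZ12 (grey); bars are 95% Wilson intervals and the numbers are peaks. The blue shares run from 42.6% to 81.2% and lie below the grey ones, at 97.0% to 99.8%, in every bin.

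The PCL2 peaks under these regions were wider than PCL2 peaks that met neither other list. The 335 regions with PCL2 lay on 345 PCL2 peaks with a median width of 856 bp (quartiles 566 and 1228 bp), against 506 bp for PCL2 peaks that met neither JARID2 nor SUZ12 and 1500 bp for PCL2 peaks that met SUZ12. Where the JARID2 region was more than 10 kb from SUZ12, the median PCL2 width was 844 bp. A wide PCL2 peak has more chances to touch another list, so these widths depend in part on the grouping itself. The PCL2 peak with the largest overlap covered a median of 98.9% of the JARID2 region. It covered the whole region in 164 cases (49.0%) and under 10% of it in 9. Here and below, the share of a region under PCL2 counts that peak alone. The share is a lower limit where several PCL2 peaks touch the region. Of the 345 PCL2 peaks, 44 (12.8%) reached on to a SUZ12 peak beside the region. Among the 208 regions without PCL2, a PCL2 peak lay within 1 kb of 89 (42.8%, interval 36.3% to 49.6%), and the median distance to one was 2663 bp.

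Distance to SUZ12 spanned 6 orders of magnitude. The nearest SUZ12 peak was a median of 18716 bp away (quartiles 949.5 and 113651 bp), from 3 bp to 4604542 bp. The median was 24700 bp for regions with PCL2 and 8223.5 bp for regions without, and the quartiles of both groups overlapped widely (1269.5 to 126621 bp with PCL2, 645.25 to 100610 bp without). Within 1 kb of SUZ12 lay 139 regions (25.6%), of which 76 had PCL2 and 63 did not. At 1 to 10 kb lay 110 (65 with PCL2 and 45 without), at 10 to 100 kb 145 (97 and 48), and beyond 100 kb 149 (97 and 52). PCL2 was on 54.7% of the nearest group (46.4% to 62.7%) and on 65.1% of the farthest (57.2% to 72.3%), with overlapping intervals.

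**Figure D3:**
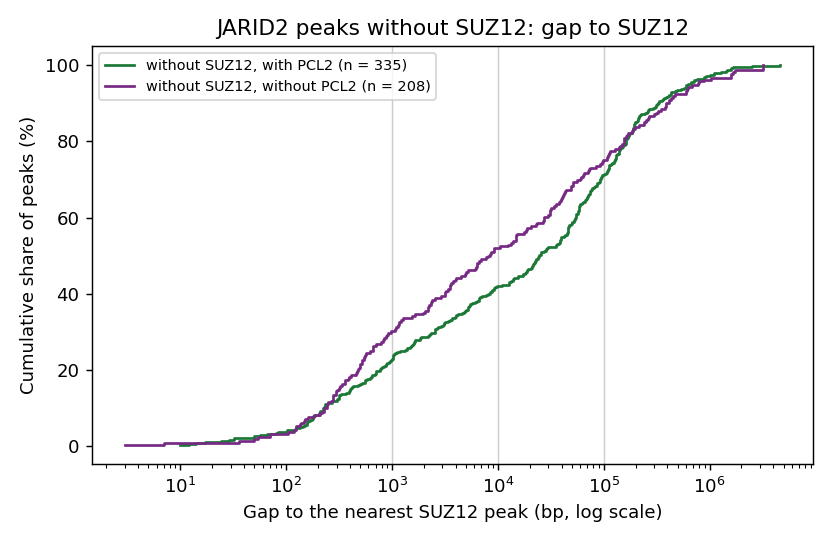
Cumulative share of JARID2 peaks without SUZ12 (vertical axis, %) by the gap to the nearest SUZ12 peak (horizontal axis, bp, log scale), for regions with PCL2 (green) and without (purple); grey lines mark 1, 10 and 100 kb. The purple curve lies above the green one from about 1 kb to 100 kb, with medians of 24700 bp (with PCL2) and 8223.5 bp (without).

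Regions close to SUZ12 mostly lay beside wide SUZ12 peaks that carried JARID2 of their own. For the 139 regions within 1 kb, the neighbouring SUZ12 peak had a median width of 2123 bp (1728 bp next to regions with PCL2 and 2355 bp next to regions without), against 1462.5 bp over all SUZ12 peaks. That neighbour overlapped another JARID2 peak in 117 of 139 cases (84.2%), while 3935 of all 7796 SUZ12 peaks overlapped JARID2. A single PCL2 peak reached from the region to SUZ12 in 41 of 76 cases within 1 kb and in 2 of 65 at 1 to 10 kb.

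The rule's boundary was 1 bp of overlap. Just inside it were a 612 bp region on chromosome 12 near Amn, with SUZ12 3 bp away, a 345 bp region on chromosome 8 in the neighbourhood of the phospholipase gene Plcg2, 7 bp away, and an 816 bp region on chromosome 14 near Zmiz1, 10 bp away. Just outside it were peaks near Cxxc4 (400 bp wide, 1 bp of overlap with SUZ12), Nod1 (175 bp wide, 13 bp) and the Zic1 and Zic4 pair of neural transcription factor genes (307 bp wide, 15 bp). Of these 6 the Zmiz1 region, the Nod1 peak and the Zic peak also overlapped PCL2.

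Regions with PCL2 lay near gene starts and ends more often than regions without, while the share inside genes was close. A start of the RefSeq table lay inside 43 of 324 regions with PCL2 (13.3%), against 8 of 201 without (3.98%); 18 regions on chromosome 18 are left out of these counts. Starts that the table does not list, such as that of Mos, count as none on the other chromosomes too, so all shares of starts are lower limits. Among JARID2 peaks with SUZ12 the share was 36.6%, and 2072 of 11480 PCL2 peaks with neither partner covered a start. A start within 1 kb was found for 31.5% of regions with PCL2 (26.7% to 36.7%) and 19.4% of regions without (14.5% to 25.4%), against 50.8% of peaks with SUZ12 and 27.5% of PCL2 peaks with neither partner. The intervals overlapped for a start within 5 kb (47.2% with PCL2, 41.9% to 52.7%, against 39.3% without, 32.8% to 46.2%), and within 50 kb the shares were 84.9% with PCL2 and 85.6% without. An end of a protein-coding gene, at either side because the gene table gives no strand, lay within 1 kb of 97 of 335 regions with PCL2 (29.0%, 24.4% to 34.0%) and 31 of 208 without (14.9%, 10.7% to 20.4%), against 58.2% of peaks with SUZ12. The share for PCL2 peaks with neither partner was 29.4%, about that of regions with PCL2. Inside a protein-coding gene, ends included, were 55.2% of regions with PCL2 and 53.8% of those without, against 79.0% of peaks with SUZ12. Inside a gene and away from its ends were 33.1% with PCL2 (28.3% to 38.3%) and 42.3% without (35.8% to 49.1%), against 24.3% with SUZ12. Neither near an end nor inside a gene were 37.9% with PCL2 (32.9% to 43.2%) and 42.8% without (36.3% to 49.6%), against 17.4% with SUZ12 and 34.0% of PCL2 peaks with neither partner. In both of these the intervals of the regions with and without PCL2 overlapped.

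The difference in nearness to gene ends was also seen among narrow regions. Under 500 bp, 49 of 194 regions with PCL2 (25.3%, 19.7% to 31.8%) were within 1 kb of a gene end, against 21 of 167 without (12.6%, 8.37% to 18.5%), and 43.5% of peaks with SUZ12 of that width. At 500 bp or more it was 34.0% of 141 with PCL2 (26.7% to 42.2%) against 24.4% of 41 without (13.8% to 39.3%), whose intervals overlapped, and 61.0% of peaks with SUZ12. The regions farthest from SUZ12 were the most often on a start. Beyond 100 kb from SUZ12, 22 of 93 regions with PCL2 covered one (23.7%, 16.2% to 33.2%), against 4 of 49 without (8.16%, 3.22% to 19.2%). Within 1 kb of SUZ12, 5 of 75 with PCL2 (6.67%) and 2 of 60 without (3.33%) did.

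Of 21887 protein-coding genes, 131 had an end within 1 kb of a JARID2 peak without SUZ12, which is 0.599% of all. The count was 101 genes (0.461%) for regions with PCL2 and 31 (0.142%) for regions without. With regions inside the gene body added, the count was 317 genes (1.45%). Of 429 genes from 23 lists of pathways and cell type markers, 6 were near a region and 20 were near or contained one, and 12 lists had none, among them the PRC2 core, primed epiblast, endoderm, trophoblast, germline and ribosomal protein lists. The lists are short, with 23 genes in the germline list, so an empty list does not show that genes of that kind lack regions. Mos and Rpl10l, described further on, have regions and are on neither the germline nor the ribosomal protein list. The few listed genes with regions are named as places, since the peaks chose them.

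Among the genes with a nearby region, 5 had one with PCL2. The region at Col1a2 (chr6:4505377-4505855) covered the start, was wholly covered by PCL2 and lay 152906 bp from SUZ12. The region by Fgf10, which encodes a growth factor needed for lung and limb buds, was 254 bp from the start (chr13:118713580-118714445), had 31.8% of its length under PCL2 and was 1110221 bp from SUZ12. The region at Isl1, a LIM-homeodomain factor of heart and motor neuron progenitors, lay at the gene's far end (chr13:116297065-116297702), wholly under PCL2 and 2358 bp from SUZ12. A second region inside Isl1 (715 bp) was 66.2% covered by PCL2 and 1068 bp from SUZ12. Hoxb5 and Hoxb3, homeobox genes that pattern the body axis, shared a 404 bp region wholly under PCL2 and 81 bp from SUZ12. Col1a2 and Fgf10 thus lay far from any SUZ12 peak, while Isl1, Hoxb5 and Hoxb3 had SUZ12 within a few kb.

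Regions inside listed genes lay at a range of distances from SUZ12, some with PCL2 and some without. Bcor, which encodes a subunit of a variant Polycomb repressive complex 1 and lies on chromosome X, held 3 regions with PCL2, of 398, 1666 and 369 bp, at 5267, 225 and 695 bp from SUZ12. Jarid2 itself held a 323 bp region without PCL2, 322622 bp from SUZ12 (chr13:44755448-44755770). Esrrb, a nuclear receptor of naive pluripotency, held a 328 bp region with PCL2, 17464 bp from SUZ12. Lgr5, an R-spondin receptor, held a 975 bp region with PCL2, 132093 bp away. In the Hox clusters, Hoxb3 held 2 further regions, Hoxd3 2 and Hoxa3 1, all without PCL2 and 241 to 2900 bp from SUZ12. The nearest PCL2 peaks lay 81 and 679 bp away at Hoxb3, 185 and 3021 bp at Hoxd3 and 518 bp at Hoxa3. Tbx5, Osr1, Nkx2-2, Prrx1 and Wnt10b, which encode developmental transcription factors and a Wnt ligand, each held a region without PCL2, at 408, 105, 210, 226 and 1152 bp from SUZ12. In the same order, the nearest PCL2 peak was 302, 62, 166, 376 and 720 bp away. Flt1, a receptor for vascular endothelial growth factor, held a region wholly under PCL2, 643 bp from SUZ12. Runx1, a blood transcription factor, held a region with only 8.33% of its length under PCL2, 37510 bp from SUZ12.

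The widest region of all, 2564 bp on chromosome X (chrX:53057449-53060012), lay within 5 kb of the lncRNA C430049B03Rik and the microRNA genes Mir322, Mir503 and Mir351. The largest overlap of this region with a PCL2 peak was 26.2% of its length, and SUZ12 was 158247 bp away. Next came 2340 bp over the start of Gm40602 on chromosome 10, with 45.4% under PCL2, and 2241 bp over the starts of Abhd6 on chromosome 14, with 66.3% under PCL2 and SUZ12 312477 bp away. A further one, 2132 bp near the Notch ligand gene Dll1 on chromosome 17, was different. SUZ12 lay 32 bp from it, and its largest overlap with a PCL2 peak was 2.16% of its length.

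Without PCL2 the widest region was 1372 bp on chromosome 10 (chr10:37139563-37140934), 31 bp from a start of the lncRNA 5930403N24Rik and within 5 kb of Marcks, which encodes a substrate of protein kinase C; SUZ12 was 631285 bp away and PCL2 278 bp away. It was followed by 1226 bp inside Osr1, a kidney progenitor factor, with PCL2 62 bp away, and 1156 bp in Lats2, a Hippo pathway kinase, with SUZ12 13224 bp and PCL2 13615 bp away. A region of 1156 bp on chromosome X lay among annotated pseudogenes, and one of 1084 bp on chromosome 18 lay by the semaphorin gene Sema6a, with SUZ12 227 bp and PCL2 122 bp away.

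Some genes held several regions. Within 10 kb of another such region lay 75 of the 543 (13.8%), and within 1 kb of one lay 38, so the regions are not all separate sites. A total of 19 protein-coding genes had 2 or more. Besides Bcor and Hoxb3, Gria3 held 3, all without PCL2 and at least 3219248 bp from SUZ12; it encodes a glutamate receptor subunit and lies on chromosome X. Mos, the kinase of the maturing oocyte, had 2 with PCL2, 191536 and 192169 bp from SUZ12. Pou3f2, a neural POU-domain factor, had 2 without PCL2, 118 and 2573 bp from SUZ12, and Lats2 had 2 without PCL2, 13224 and 14845 bp away.

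JARID2 peaks without SUZ12 were found on all 19 autosomes and X. On autosomes they were 10.4% of JARID2 peaks (510 of 4884), ranging from 4.86% on chromosome 6 (19 of 391) to 17.4% on chromosome 12 (39 of 224). On chromosome X they were 31.7% (33 regions, interval 23.6% to 41.2%). The intervals of all 19 autosomes lay below that of X, though the upper limit of chromosome 12 was close, at 22.9%. These intervals treat neighbouring regions as independent. Seen the other way, 6.08% of JARID2 peaks without SUZ12 were on X, against 1.60% of those with SUZ12 and 0.964% of PCL2 peaks with neither partner. Several regions on X shared a gene or lay close together: Gria3 held 3 without PCL2 and Bcor 3 with PCL2. A run of regions without PCL2 lay among pseudogenes (chrX:137106377-137111592). Counts on X are therefore of regions and not of separate sites. By region, the X share was alike with PCL2 (20 of 335, 5.97%) and without (13 of 208, 6.25%). It was also present at both widths: under 500 bp, 57.1% of 28 X peaks lacked SUZ12 (39.1% to 73.5%), against 33.3% of 1037 autosomal peaks (30.5% to 36.2%), and at 500 bp or more 22.4% of 76 (14.5% to 32.9%), against 4.29% of 3850 (3.69% to 4.97%). The SUZ12 list held 96 peaks on X.

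**Figure D4:**
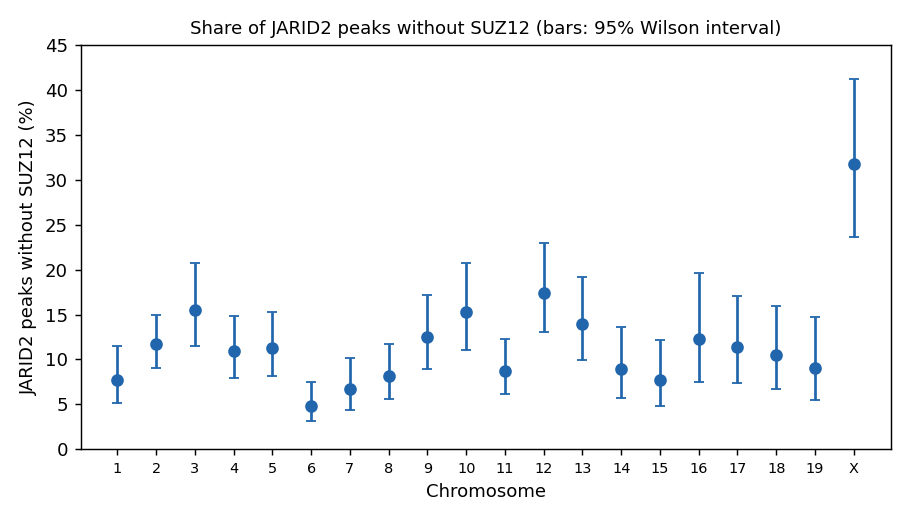
Share of JARID2 peaks that lacked SUZ12 (vertical axis, %) on each chromosome (horizontal axis); points are shares and bars 95% Wilson intervals. The point for X, at 31.7%, stands above the autosomes, which lie between 4.86% and 17.4%.

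Promoters were counted as lying in a peak when at least 150 of the 300 bases of a RefSeq window (250 before the start, 50 after) were inside it. JARID2 peaks without SUZ12 held 47 such windows of 44 genes, 33 of them windows of protein-coding genes and 14 of lncRNAs; 37 were in regions with PCL2 and 10 in regions without. Some windows overlap each other, such as the 3 of Gm30134 and those of Ptgs2 and its antisense partner Ptgs2os, so they are not independent. With PCL2 they included Col1a2, Abhd6, E2f6, a repressor of the E2F family, Axl, a receptor tyrosine kinase, Trpc6, a calcium channel, Wls, which exports Wnt proteins, Fgf13 and Rpl10l, a ribosomal protein gene known from testis. Without PCL2 they included both cyclooxygenase genes, Ptgs1 and Ptgs2, the potassium channel gene Kcna4, the receptor gene Calcrl, Akip1 and Frmpd3. All names in this paragraph apart from Col1a2 and Abhd6 were chosen after their values had been seen.

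Median base composition of these windows lay between that of promoters in JARID2 peaks with SUZ12 and that of all promoters. The ratio of observed to expected CpG is the CpG count times the length, divided by the product of the C and G counts. Its median was 0.56 in the 40 windows more than 10 kb from SUZ12. In the 7 nearer ones it was 0.81, which is above the 0.74 of windows with SUZ12. Median GC was close in those sets, at 59.7% far from SUZ12 and 59.3% near it. The 7 nearer windows belong to 5 genes and include the overlapping ones of Gm30134. Their ratios ran from 0.38 (Cck) to 0.86 (E2f6), so the difference rests on few sites. Median GC was 60.3% in regions with PCL2, 57.5% in regions without and 65.0% in JARID2 peaks with SUZ12, against 52.7% over all 32817 windows. The median ratio of observed to expected CpG was 0.61 with PCL2, 0.47 without and 0.74 with SUZ12, against 0.38 over all windows; PCL2 peaks with neither partner had 0.80. The median number of CpGs per window was 15 with PCL2, 11.5 without and 22 with SUZ12. Single windows varied widely: among those without PCL2, Akip1 had a ratio of 1.04 and Gm35196 had no CpG.

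**Figure D5:**
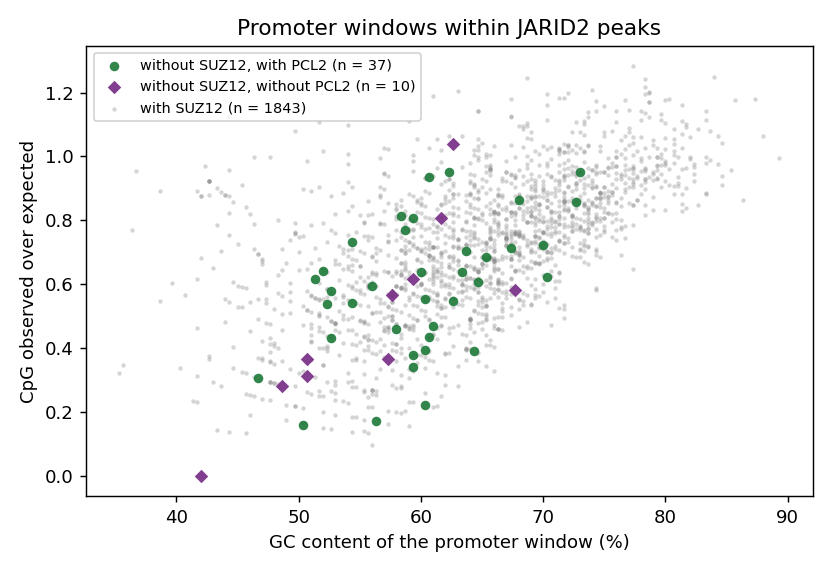
CpG observed over expected (vertical axis, ratio) against GC content (horizontal axis, %) of promoter windows within JARID2 peaks, 1 point per window: without SUZ12 and with PCL2 (green, 37 windows), without SUZ12 and without PCL2 (purple diamonds, 10) and with SUZ12 (grey, 1843). The coloured points have median ratios of 0.61 and 0.47, against 0.74 for the grey ones, and few reach the dense upper right of the grey cloud.

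Short sequence motifs were searched on both strands of the 300-base windows. CGCG was in 22 of 47 windows without SUZ12 (46.8%, interval 33.3% to 60.8%), against 78.7% of windows with SUZ12, 73.3% of all windows with a GC content of at least 55% and 38.0% of all windows. CCGCCG was in 21.3% of windows without SUZ12 (12.0% to 34.9%), against 46.3% with SUZ12, 40.2% of the GC-rich windows and 18.7% of all. GCG was in 95.7%, against 99.5% and 80.7%, and GAGA in 95.7%, against 93.2% and 94.3%. GGCGGGA, a sequence like those bound by E2F factors and added after the gene names had been seen, was in 23.4%, against 21.2% with SUZ12, 22.9% of the GC-rich windows and 11.3% of all. By distance, GGCGGGA was in 6 of 40 windows more than 10 kb from SUZ12 (15.0%) and in 5 of 7 nearer ones, some of which overlap each other. CGCG and CCGCCG contain CpGs, which were fewer in windows without SUZ12 than in those with it, as given above.

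CACGTG, the hexamer of the stretches printed above, was in 12 of 47 windows without SUZ12 (25.5%, interval 15.3% to 39.5%), 9 of 37 with PCL2 (24.3%) and 3 of 10 without (30.0%). It was in 8.08% of windows with SUZ12 (6.93% to 9.42%), 8.84% of windows in PCL2 peaks with neither partner and 7.15% of all windows. Among all windows with a GC content of at least 55% the share was 10.2%. When windows with any base in the peak were counted it was 15 of 73 (20.5%, 12.9% to 31.2%), against 8.41% with SUZ12, and when the whole window had to lie in the peak 5 of 19 (26.3%, 11.8% to 48.8%), against 8.45%. It was in 9 of 40 windows more than 10 kb from SUZ12 (22.5%) and in 3 of 7 nearer ones. The windows of Ptgs2 and Ptgs2os share 1 copy. As the motif was chosen after the gene names had been seen, these shares are a description of 47 windows.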

How the data were processed

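The authors deposited 3 peak lists of the whole series that give each peak's chromosome, start and end, and no score, p-value or library; the other values in the deposited lists are positions in base pairs. Trimmomatic, Bowtie2 and mm10 are named for the ChIP samples, without versions, per the submitters' processing notes; the sources used here name no caller, threshold or pooling of libraries. Overlap meant at least 1 bp, and gaps count the bases between nearest edges. Symbols, gene ends and promoter windows came from RefSeq tables of GRCm38.p6; none of the windows lie on chromosome 18. The 24 deposited RNA count files were not used, since no table at hand pairs their gene IDs with positions, so the planned RNA comparisons were not made.

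The regions, gene lists and rules were chosen with earlier results of these data known. By rule the text names the 5 widest regions with and the 5 without PCL2, the 3 on each side of the overlap limit and listed genes within 1 kb. Others are examples picked after their values were seen. Some results that the rule selects are not reported here. Python 3.11.15, pandas 2.3.3, NumPy 2.4.6, SciPy 1.17.1 and matplotlib 3.10.9 were used. The overlap and gap routine was tested on 1000 simulated peaks, and the motif and CpG routines on a few short sequences written by hand.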

Additional observations from a re-analysis of the deposited data

How the results depend on the processing

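Of 32 values under alternative settings, 20 stayed within the interval of the value reported (for the number of regions, within 1.5 times) and 12 did not. When an overlap had to reach 50% of the shorter peak, PCL2 was on 54.5% of regions. Among JARID2 peaks of at least 1 kb, 32 lacked SUZ12, 81.2% of them had PCL2, the median width was 1314 bp with PCL2 and 1156 bp without, and 34.4% were near a gene end; the width limit sets these widths by construction. A gene end lay within 5 kb of 51.7% of regions, and 60.2% touched a whole gene with 1 kb either side, both by a wider definition. Requiring no SUZ12 within 1 kb left 404 regions, 64.1% with PCL2. The settings on PCL2 width, SUZ12 width, chromosome X and the CACGTG windows were chosen after seeing the data. With PCL2 peaks of at least the median width only, the PCL2 share was 40.9%. With SUZ12 peaks of at least 1 kb only, 810 regions lacked SUZ12, 73.2% had PCL2, the median width with PCL2 was 484 bp and 30.5% were near a gene end; the cause was not tested. Without chromosome X, 510 regions were left, 61.8% with PCL2. In each of these settings that gave both medians, regions with PCL2 had the higher one, but not among the regions within 1 kb of SUZ12 taken alone (373 bp with PCL2, 396 bp without). No paired analysis was possible because the RNA comparisons could not be made; their alternatives were not run. The absence of heights and replicates limits every share to a description of 1 set of lists.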
